A study of Mus musculus with 12 samples.

Results

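Levels of 10 Kruppel-like factor genes, Klf2, Klf3, Klf4, Klf5, Klf6, Klf7, Klf9, Klf10, Klf13 and Klf16, were read out in mouse cells on the way to pluripotency. They were picked by symbol among the 23420 genes counted, and 7 further genes named Klf were listed beside them. RNA-seq covered 12 libraries, 3 each of mouse embryonic fibroblasts (MEF), Stage1, Stage2 and established induced pluripotent stem cells (iPSC). Stage1 was sampled at day 6 and Stage2 after a further 4 days, and every group came from mice of mixed C57BL/6 and 129 background. The series text states that cells of all groups except MEF were sorted for Oct4-GFP, a fluorescent reporter of the pluripotency gene Pou5f1. How the reprogramming factors were delivered, whether the iPSC were clones or pools, and whether the replicates came from separate cultures or animals is not given in the sources used here. The p-values below therefore measure only the spread between these libraries.

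Kruppel-like factors are transcription factors that share a block of zinc fingers at the end of the protein and bind GC boxes and CACCC boxes in promoters. The regions outside the zinc fingers differ and recruit either activators such as p300 or repressors such as CtBP and Sin3. In mouse pluripotent cells Klf2, Klf4 and Klf5 occupy many of the same sites as Pou5f1, Sox2 and Nanog and help to hold the naive state, and Klf4 is among the factors used to reprogram fibroblasts. Other members are better known from differentiated cells, for example Klf6 as a gene switched on by injury and growth signals and Klf10 as an early target of TGF-beta.

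Promoter sequences of RefSeq (build GRCm38.p6, 250 bases before to 50 after the start of the gene) were matched by symbol to 7 of the 10 genes, all except Klf5, Klf10 and Klf16. Of these, 4 are printed here as examples, 5′ to 3′ on the strand of the gene. Klf4 and Klf2 were higher and Klf6 and Klf3 lower at Stage1 than in MEF. Klf9, also higher, and Klf7 and Klf13, also lower, are not printed. Capitals mark every match to the GC box GGGCGG or to the CACCC box on either strand, so that CCGCCC and GGGTG are capitals too. The windows are chr4:55532426-55532725 on the minus strand for Klf4, chr8:72318812-72319111 on the plus strand for Klf2, chr13:5861239-5861538 on the plus strand for Klf6 and chr5:64803271-64803570 on the plus strand for Klf3.
Klf4: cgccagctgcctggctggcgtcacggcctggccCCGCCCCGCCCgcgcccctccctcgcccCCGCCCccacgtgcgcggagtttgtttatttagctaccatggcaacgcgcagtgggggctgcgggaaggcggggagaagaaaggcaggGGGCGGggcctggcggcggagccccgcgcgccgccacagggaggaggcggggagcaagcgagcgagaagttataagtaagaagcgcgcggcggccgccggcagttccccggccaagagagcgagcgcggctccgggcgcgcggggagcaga
Klf2: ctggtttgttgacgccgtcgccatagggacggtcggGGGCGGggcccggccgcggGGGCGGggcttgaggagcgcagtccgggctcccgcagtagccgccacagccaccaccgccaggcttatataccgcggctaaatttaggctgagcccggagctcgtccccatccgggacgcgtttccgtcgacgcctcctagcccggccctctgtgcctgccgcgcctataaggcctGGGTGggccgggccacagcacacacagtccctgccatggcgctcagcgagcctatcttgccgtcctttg
Klf6: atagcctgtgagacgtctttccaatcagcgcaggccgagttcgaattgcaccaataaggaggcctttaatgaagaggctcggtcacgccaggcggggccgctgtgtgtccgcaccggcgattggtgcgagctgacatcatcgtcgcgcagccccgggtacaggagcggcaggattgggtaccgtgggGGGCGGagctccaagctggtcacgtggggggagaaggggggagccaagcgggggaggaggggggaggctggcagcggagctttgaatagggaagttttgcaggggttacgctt
Klf3: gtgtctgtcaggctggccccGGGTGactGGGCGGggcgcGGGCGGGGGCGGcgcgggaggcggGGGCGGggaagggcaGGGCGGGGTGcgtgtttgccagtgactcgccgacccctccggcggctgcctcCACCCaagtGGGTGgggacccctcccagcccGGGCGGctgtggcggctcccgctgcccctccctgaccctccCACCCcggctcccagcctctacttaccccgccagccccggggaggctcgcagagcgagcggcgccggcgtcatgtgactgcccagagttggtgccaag
The Klf4 window holds 4 GC boxes and 0 CACCC boxes, that of Klf2 2 GC boxes and 1 CACCC box, that of Klf6 1 GC box and 0 CACCC boxes, and that of Klf3 6 GC boxes and 5 CACCC boxes, of which a pair shares 1 base. Over the 7 windows, 6 hold a GC box, against 35.7% of all 32851 promoters in the table, and 5 hold a CACCC box, against 57.5%. The window without a GC box is that of Klf9, which is not printed. Both boxes occur in 4 of the 7 and in 23.8% of all promoters. The median GC content was 69.3% over the 7 windows and 52.7% over all promoters, and the part of GC content in the motif counts was not tested. These letters are a description of the windows, and genes that were higher and genes that were lower both carry them.

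Library size ranged from 8916223 to 19011944 gene counts. Reads that counting assigned to no gene made up 8.86% to 9.42% in MEF and 35.0% to 53.4% in the other groups. How many of them lay in introns is not given in the sources used here. This share separated MEF from every other group, and its part in the comparisons with MEF was not tested. The stage named among the characteristics differed from the title in 12 of 12 libraries. Groups follow the titles, which are also the names of the deposited counts, and under the other naming each comparison becomes a different one of the same 6 comparisons. The libraries titled MEF held 27830 to 34024 CPM (read counts scaled to a common library size) summed over 8 fibroblast markers, against 12.9 to 192 in the other groups. The sum over 8 pluripotency markers was 3.02 to 4.13 CPM in MEF, against 1956 to 2861. MEF replicate 1 stood apart in sex-linked genes, with 227 CPM of Xist, against 0.267 and 0 in MEF replicates 2 and 3, and 0.752 CPM of the Y-linked Ddx3y, against 109 to 253 CPM in the other libraries. Xist also differed within Stage1, with 3.18, 38.2 and 52.4 CPM in replicates 1, 2 and 3. No replicates matched within counting noise, and a member's level in these bulk samples cannot tell fewer cells from less RNA per cell.

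Klf4 and Klf5 were low in MEF and higher in each reprogrammed group, while Klf2 was higher at Stage1 and Stage2 and was not called in iPSC against MEF. Levels are CPM after TMM scaling unless stated otherwise. Klf4 had 8.52, 16.8 and 28.5 CPM in MEF, 157, 158 and 171 CPM at Stage1, 200, 156 and 148 CPM at Stage2, and 133, 115 and 92.2 CPM in iPSC. The jump lay between MEF and Stage1, and the lowest Stage1 library was above the highest MEF library. Whether its reads include copies introduced for reprogramming is not given in the sources used here. The MEF libraries differed more than 3-fold among themselves, with a coefficient of variation of 55.9%, against 4.85% at Stage1.

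Klf5, which the blastocyst needs for its outer layer and inner cells (mm10, chr14:99298691-99315036, plus strand), was the scarcest of the 10 per kilobase in MEF, with levels of 2.76, 2.01 and 3.14 CPM. It had 8.64, 18.8 and 21.6 CPM at Stage1, 174, 81.9 and 81.0 CPM at Stage2, and 26.5, 36.1 and 30.2 CPM in iPSC. Stage2 replicate 1 was about double the other Stage2 libraries, and none of the 4 groups overlapped another. The Stage2 mean was 42.7-fold the MEF mean, the widest span among the 10 genes. Klf2, best known as a factor of resting endothelium and of naive pluripotent cells, moved over a 2.67-fold span only. It had 17.9, 14.9 and 19.7 CPM in MEF, 32.6, 25.5 and 29.6 CPM at Stage1, 57.2, 45.3 and 37.7 CPM at Stage2, and 20.6, 23.0 and 22.3 CPM in iPSC. Stage2 was above every other group, and iPSC lay between Stage1 and MEF.

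**Figure D1:**
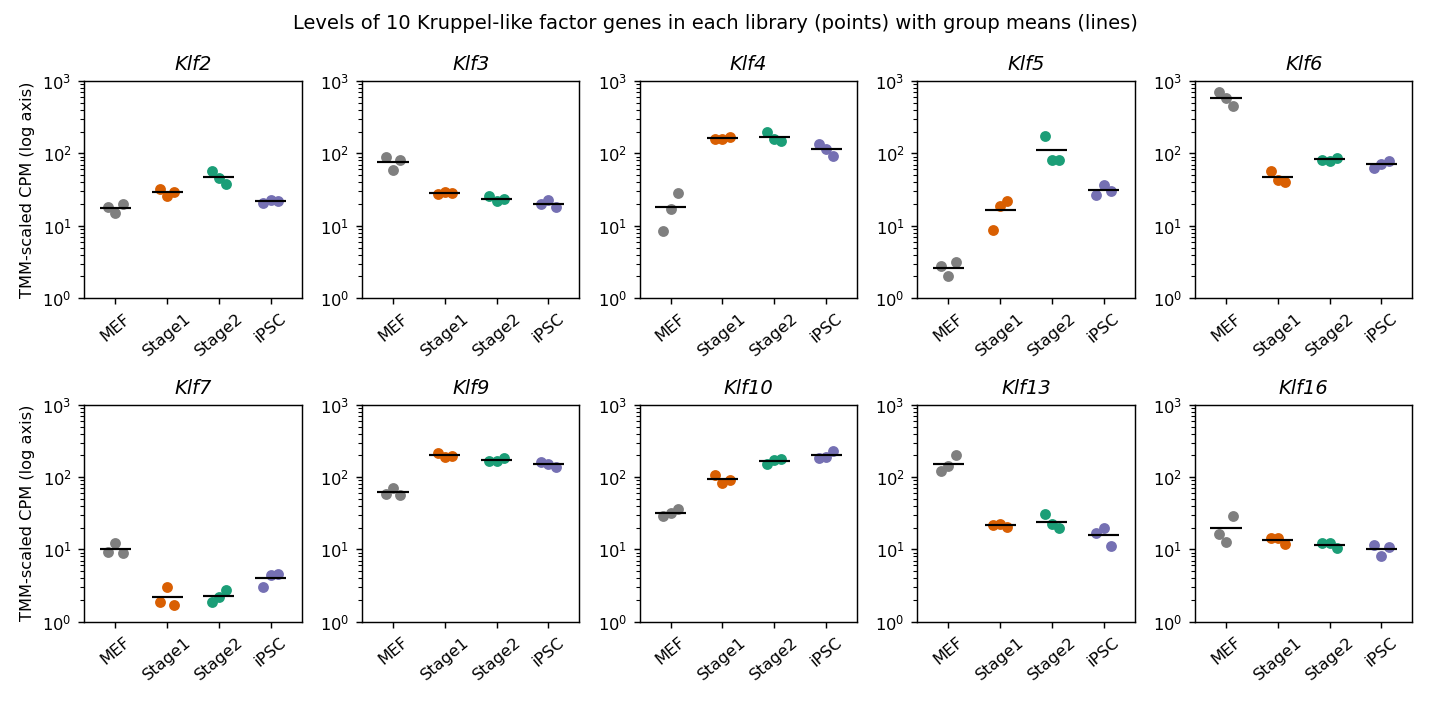
TMM-scaled CPM (log axis) of each of the 10 genes in MEF, Stage1, Stage2 and iPSC; points are single libraries and lines are means of 3. Klf5 peaks at Stage2, Klf4 is high in the 3 reprogrammed groups, and Klf6 and Klf13 are highest in MEF.

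Klf9 and Klf10, relatives that carry a Sin3-binding stretch and are switched on by thyroid hormone or glucocorticoids (Klf9) and by TGF-beta (Klf10), were also higher in the reprogrammed groups. Klf9 had 59.0, 69.6 and 56.0 CPM in MEF, 217, 192 and 195 CPM at Stage1, 167, 165 and 185 CPM at Stage2, and 160, 153 and 138 CPM in iPSC. After its rise at Stage1 the group means ran downward, with neighbouring groups separate but close. Klf10 (mm10, chr15:38291463-38300706, minus strand) kept climbing, with 28.6, 31.6 and 36.3 CPM in MEF, 107, 84.1 and 90.3 CPM at Stage1, 153, 173 and 180.1 CPM at Stage2, and 182, 189.9 and 227 CPM in iPSC. Among the 10 genes it was the one with its highest mean in iPSC, and no 2 groups overlapped.

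Klf6, Klf13, Klf3, Klf7 and Klf16 had their highest means in MEF. Klf6 had 698, 584 and 458 CPM in MEF, 56.7, 42.2 and 40.3 CPM at Stage1, 81.9, 79.3 and 86.8 CPM at Stage2, and 62.9, 72.2 and 79.0 CPM in iPSC. The 3 reprogrammed groups were far below MEF, with the lowest values at Stage1. Klf13, a Sin3-binding factor known from T cells and heart, had 120, 142 and 200 CPM in MEF, 21.7, 22.6 and 20.7 CPM at Stage1, 30.6, 22.1 and 19.9 CPM at Stage2, and 16.9, 19.7 and 11.1 CPM in iPSC. A coding gene overlaps Klf13 on the other strand and the strandedness of the libraries is not given in the sources used here.

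Klf3, a repressor that works through CtBP, had 88.8, 59.0 and 81.8 CPM in MEF and 18.2 to 29.7 CPM in the other 9 libraries. Klf7, known for axon growth, was the scarcest gene per kilobase outside MEF, with 9.27, 12.2 and 8.92 CPM in MEF and 1.68 to 4.59 CPM, or 19 to 64 reads, in the others. Klf16, another Sin3-binding repressor, spread from 12.8 to 29.4 CPM in MEF and from 8.06 to 14.4 CPM elsewhere. The MEF range of Klf16 took in the upper Stage1 values, and MEF replicate 3 alone was well above them.

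Stage1 against MEF sets day 6 cells sorted for Oct4-GFP against fibroblasts, and 9 of the 10 genes changed. By the quasi-likelihood test of edgeR, adjusted over 14770 genes by the Benjamini-Hochberg method, 5 were higher and 4 lower at an adjusted p below 0.05, and all 10 had passed the filter on low counts. Over all genes tested, 44.2% were called higher and 36.1% lower, so the members' counts lie near the background of this comparison. The median log2 fold change of the members was 0.10, against 0.27 over all genes. Groups did not overlap for 9 of the 10, against 79.2% of all genes, with 5 above MEF and 4 below it, against 43.9% and 35.4% of all genes. Klf4 was higher by 3.14 on the log2 scale (SE 0.291, adjusted p = 4.36e-08), Klf5 by 2.63 (SE 0.383, adjusted p = 9.88e-06), Klf9 by 1.71 (SE 0.130), Klf10 by 1.54 (SE 0.146) and Klf2 by 0.74 (SE 0.183, adjusted p = 0.00127). Klf6 fell by 3.64 on the log2 scale (SE 0.180, adjusted p = 4.10e-12), which is 12.5-fold. Klf13 fell by 2.83 (SE 0.228), Klf7 by 2.21 (SE 0.322) and Klf3 by 1.42 (SE 0.168). These 9 calls held without each library in turn, MEF replicate 1 included.

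Klf16 was the exception, at 13.5 ± 1.31 CPM at Stage1 and 19.5 ± 8.72 CPM in MEF (SD, n = 3 each), with a log2 change of -0.53, a 95% interval of -1.08 to 0.02 and an adjusted p of 0.0695. Without MEF replicate 1 or MEF replicate 2 it was called lower, with adjusted p = 0.0415 and 0.00768, and without MEF replicate 3 the log2 change was -0.09 and not called. Of 6 macrophage markers, 5 were listed and summed to 7.49 to 14.6 CPM at Stage1, against 95.1 to 109 CPM in MEF. Of the 4 tested, 3 were called lower and 1 was not called. Lyz2 gave most of the MEF sum, with 1.30 CPM at Stage1 and 78.5 CPM in MEF. Cd68 gave most of the Stage1 sum, with 7.54 ± 3.30 CPM at Stage1 and 8.16 ± 2.68 CPM in MEF. The part of the macrophage markers in the Klf values was not tested. Beside the higher Klf2, the 6 endothelial markers summed to 46.5 to 58.4 CPM at Stage1, against 9.76 to 17.5 CPM in MEF. Of the 5 tested, Pecam1, Tek, Kdr and Tie1 were called higher and Emcn lower. Pecam1 gave most of the sum, with 41.0 ± 9.20 CPM at Stage1 and 0.187 ± 0.181 CPM in MEF, and Tek averaged 10.7 ± 2.73 CPM at Stage1 and 1.94 ± 1.54 CPM in MEF. Cdh5, which was too low to be tested, averaged 0.388 CPM at Stage1 and 0.804 CPM in MEF. Beside the higher Klf5, the 6 trophoblast markers summed to 118 to 136 CPM at Stage1, against 2.25 to 5.42 CPM in MEF. Of the 4 tested, Tfap2c and Eomes were called higher and Gata3 and Krt7 lower. Tfap2c gave most of the sum, with 119 ± 8.81 CPM at Stage1 and 0 CPM in MEF, and Eomes averaged 6.14 ± 2.83 CPM at Stage1 and 0.0603 ± 0.104 CPM in MEF. Cdx2 and Elf5, too low to be tested, averaged 0.306 and 0.649 CPM at Stage1 and 0 CPM in MEF. The part of these markers in the Klf2 and Klf5 values was not tested.

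Stage2 against Stage1 follows the later phase, and the 4 members called were higher. Klf5 was higher by 2.78 on the log2 scale (SE 0.331, adjusted p = 8.98e-06), which is 6.89-fold, Klf10 by 0.85 (SE 0.141, adjusted p = 0.000159), Klf6 by 0.83 (SE 0.166, adjusted p = 0.000751) and Klf2 by 0.67 (SE 0.179, adjusted p = 0.00629). These 4 calls stand against 20.6% of all genes called higher. Of the members 0 were called lower by edgeR, 0 had an unadjusted p below 0.05 in that direction and DESeq2 called 0, against 19.8% of all genes called lower. The median log2 fold change was 0.10 for the members and 0.02 over all genes. Groups did not overlap for 6 of the 10, against 59.6% of all genes, with 4 above Stage1 and 2, Klf3 and Klf9, below it, against 29.4% and 30.2% of all genes. Without Stage2 replicate 1 the change of Klf2 was 0.49 with an adjusted p of 0.0570.

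The mean of Klf4 was 168 ± 27.7 CPM in the Stage2 libraries, against 162 ± 7.86 CPM in the Stage1 libraries, and its log2 change of 0.05 had a 95% interval of -0.51 to 0.61. The intervals of the other genes that were not called were -0.63 to 0.09 for Klf3, -0.65 to 0.76 for Klf7, -0.49 to 0.04 for Klf9, -0.31 to 0.62 for Klf13 and -0.78 to 0.34 for Klf16. Beside the gain of Klf6, 7 of 8 fibroblast markers were called higher in the same comparison. They summed to 124 to 192 CPM at Stage2, against 12.9 to 25 CPM at Stage1, and their part in the Klf6 value was not tested.

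**Figure D2:**
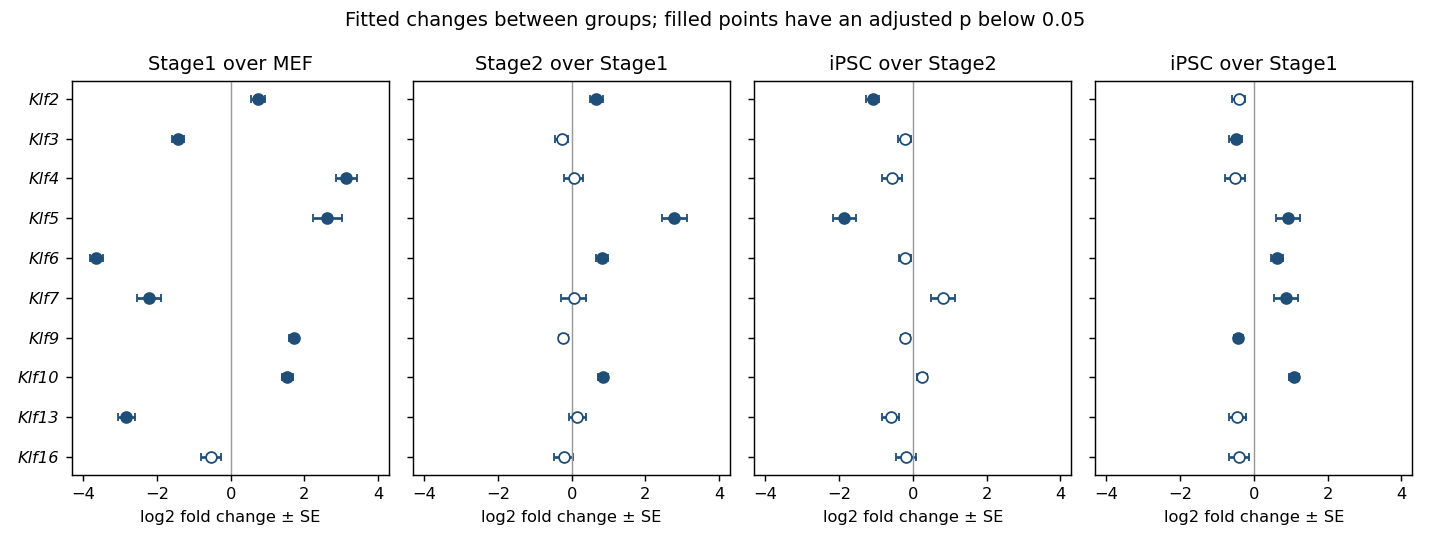
Fitted log2 fold change (x axis, the group named before "over" relative to the one after it, bars ± SE) of the 10 genes in 4 comparisons, with filled points at an adjusted p below 0.05 by edgeR. Klf5 is far to the right at Stage2 over Stage1 (2.78) and to the left in iPSC over Stage2 (-1.86), while Klf4 is near 0 (0.05) at Stage2 over Stage1.

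iPSC against Stage2 compares the established lines with the late intermediate, and 2 genes of the naive group fell. Klf5 averaged 30.9 ± 4.87 CPM in iPSC and 112 ± 53.5 CPM at Stage2 (SD, n = 3 each) and fell by 1.86 on the log2 scale (SE 0.316, adjusted p = 0.00134). Klf2 averaged 21.9 ± 1.24 CPM in iPSC and 46.7 ± 9.80 CPM at Stage2 and fell by 1.09 (SE 0.181, adjusted p = 0.000932). Over all genes 8.87% were called lower. Of the members 0 were called higher by edgeR, 1 had an unadjusted p below 0.05 in that direction and DESeq2 called 0, against 9.21% of all genes called higher. The median log2 fold change was -0.22 for the members and 0.04 over all genes. Groups did not overlap for 8 of the 10, against 46.2% of all genes, with 2, Klf7 and Klf10, above Stage2 and 6 below it, against 24.9% and 21.3% of all genes.

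Klf4 averaged 113 ± 20.6 CPM in iPSC and 168 ± 27.7 CPM at Stage2, with a log2 change of -0.57 and an adjusted p of 0.151. The log2 change was -0.60 for Klf13 (adjusted p = 0.0735) and 0.82 for Klf7 (adjusted p = 0.0868). In a fit of these 2 groups alone 5 members were called lower, Klf4, Klf9 and Klf13 being added. Klf13 was also called lower with RLE scaling, with library totals and by DESeq2. Without MEF replicate 1 or MEF replicate 3 Klf4 and Klf13 were both called lower (adjusted p = 0.0254 and 0.0392 without replicate 1, 0.0351 and 0.0334 without replicate 3), and without MEF replicate 2 Klf13 was (adjusted p = 0.0480).

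iPSC against Stage1, which skips the intermediate peak, gave 4 members higher and 2 lower, with 21.3% of all genes called higher and 18.1% lower. Klf10 was higher by 1.09 (SE 0.142, adjusted p = 1.15e-05) and Klf6 by 0.62 (SE 0.166, adjusted p = 0.00662), and both calls held in each alternative and without each library. The other 4 calls were marginal. Klf5 was higher by 0.93 (adjusted p = 0.0311), and the adjusted p was 0.0523 to 0.112 without MEF replicate 1, 2 or 3, Stage1 replicate 1 or iPSC replicate 2 or 3. Klf7 was higher by 0.88 (adjusted p = 0.0409) with overlapping groups, and the adjusted p was 0.0540 to 0.156 without Stage1 replicate 1 or 3, Stage2 replicate 2 or iPSC replicate 2 or 3. Klf3 fell by 0.49 (adjusted p = 0.0285), a call lost without Stage1 replicate 2 or 3 or iPSC replicate 1 or 3. Klf9 fell by 0.42 (adjusted p = 0.0128), a call lost without Stage1 replicate 1 or iPSC replicate 3. With no filter on low counts Klf5, Klf7 and Klf3 were not called (adjusted p = 0.0852, 0.0555 and 0.0596), and with library totals Klf3 and Klf9 were not (adjusted p = 0.0945 and 0.0560). Klf4 and Klf2 gained a call as lower under some alternatives. Klf4 was called without MEF replicate 1 or 3 (adjusted p = 0.0273 and 0.0321) and in a fit of these 2 groups alone (adjusted p = 0.00315), and Klf2 without MEF replicate 2 or 3 (adjusted p = 0.0472 and 0.0470) and in the fit of 2 groups (adjusted p = 0.0239). The members' median was -0.41, against 0.01 over all genes. Groups did not overlap for 9 of the 10, against 58.7% of all genes, with 3 above Stage1 and 6 below it, against 30.0% and 28.7% of all genes.

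Set against MEF, 44.6% of all genes were called higher and 36.4% lower at Stage2, and 44.9% higher and 35.8% lower in iPSC. At Stage2 5 members were higher and 5 lower, and in iPSC 4 were higher and 5 lower. In both comparisons the groups did not overlap for any of the 10, with 5 above MEF and 5 below it. The share of all genes without overlap was 80.3% at Stage2, with 44.7% above and 35.6% below, and 80.1% in iPSC, with 45.0% above and 35.1% below. The comparisons share the MEF libraries. Klf2 differed between them in its call: its log2 fold change over MEF was 1.42 at Stage2 (SE 0.184, adjusted p = 1.45e-06) and 0.33 in iPSC (SE 0.184, adjusted p = 0.108). The value in iPSC was called with library totals in place of TMM (0.61, adjusted p = 0.00654) and without MEF replicate 3 (0.43, adjusted p = 0.0454). Klf16 was lower in iPSC than in MEF by 0.94 (adjusted p = 0.00353) and at Stage2 by 0.75 (adjusted p = 0.0141), the second call being lost with library totals (adjusted p = 0.204) and without MEF replicate 3 (adjusted p = 0.183). Without MEF replicate 3 the iPSC value was -0.50 and still called.

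To set the genes against each other, levels were divided by the merged exon length of GENCODE M21. Per kilobase, Klf6 made up 64.3% ± 8.75 of the summed level of the 10 genes in MEF (SD, n = 3), followed by Klf13 at 10.2% ± 3.44. At Stage1 Klf4 held 33.8% ± 2.34, Klf9 26.5% ± 0.820 and Klf10 14.2% ± 1.13, while Klf6 was at 6.68% ± 1.02. At Stage2 the shares were 26.5% ± 1.72 for Klf4, 19.7% ± 3.39 for Klf10, 17.5% ± 2.37 for Klf9, 12.2% ± 1.52 for Klf2 and 10.2% ± 3.73 for Klf5. In iPSC Klf10 held 30.2% ± 3.92 and Klf4 23.4% ± 4.06. By these means the leading gene was Klf6 in MEF, Klf4 at Stage1 and Stage2 and Klf10 in iPSC. In iPSC replicate 1 Klf4 and Klf10 were nearly level, with shares of 27.4% and 27.3%.

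The summed level per kilobase varied far less than its parts, with 204 ± 16.0 CPM per kilobase in MEF, 158 ± 7.49 at Stage1, 207 ± 20.8 at Stage2 and 158 ± 1.48 in iPSC. The exact two-sided permutation test gave p = 0.1 for each step between consecutive groups, which is the smallest value that 3 against 3 allows. With the longest transcript as length the leading gene was the same in MEF, Stage1 and iPSC, while at Stage2 Klf10 held a mean share of 23.3% and Klf4 23.0%. By mean level at Stage2 Klf4 had 55.5 and Klf10 55.4 CPM per kilobase, so the order of this pair depends on the measure. Klf3 moved from rank 7 to rank 3 in MEF, since its merged exons span 11243 bases and its longest transcript 5221.

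**Figure D3:**
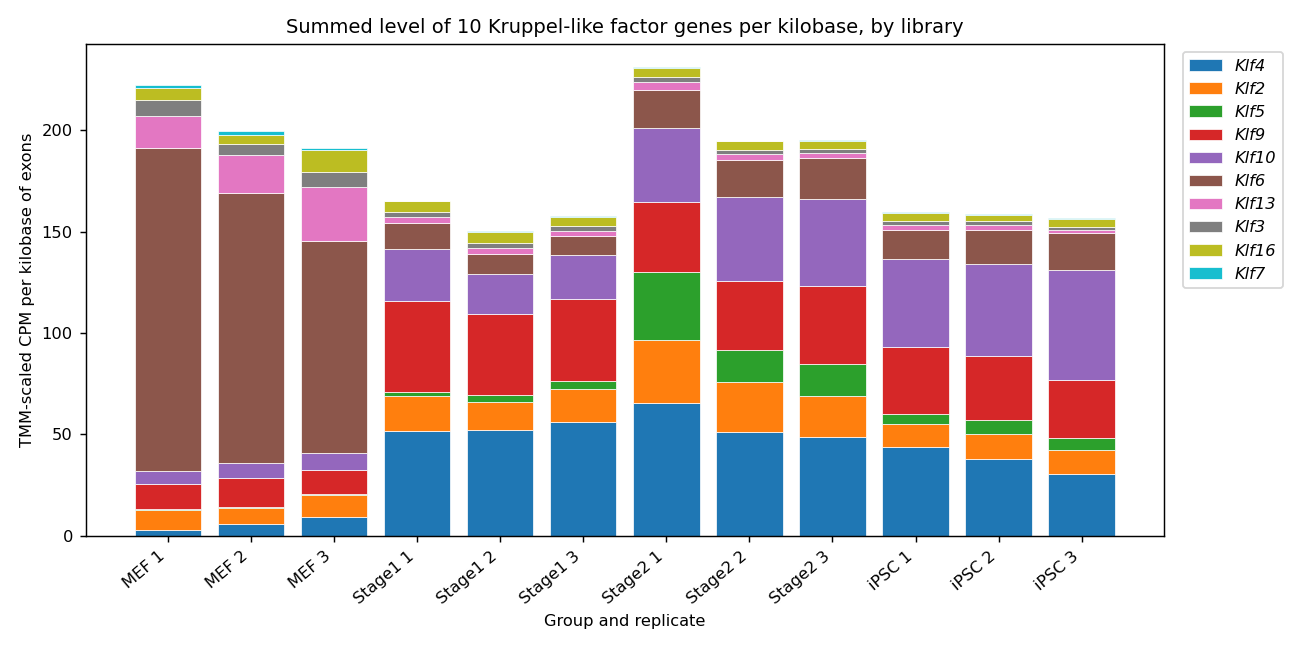
Stacked levels of the 10 genes in TMM-scaled CPM per kilobase of exons (y axis) for each of the 12 libraries (x axis). Klf6 fills most of each MEF bar (64.3% on average), and Klf4, Klf9 and Klf10 fill most of the other bars.

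Ratios within a library do not depend on scaling between libraries. The log2 ratio of Klf5 to Klf2, per kilobase, was -4.24 ± 0.129 in MEF, -2.43 ± 0.847 at Stage1, -0.31 ± 0.384 at Stage2 and -1.01 ± 0.150 in iPSC (SD, n = 3 each). Klf5 was thus closest to Klf2 at Stage2, and in Stage2 replicate 1 it exceeded it (0.11). The log2 ratio of Klf5 to Klf4 was -3.40 ± 0.865 in MEF, -4.18 ± 0.667 at Stage1, -1.44 ± 0.407 at Stage2 and -2.64 ± 0.403 in iPSC, so Klf4 was the higher of the pair in each group. The log2 ratio of Klf4 to Klf2 was -0.85 ± 0.842 in MEF, 1.75 ± 0.188 at Stage1, 1.13 ± 0.107 at Stage2 and 1.63 ± 0.325 in iPSC. Between consecutive groups the exact two-sided permutation test gave p = 0.1, the smallest it can give, for each ratio, with the exception of Klf5 to Klf4 at Stage1 against MEF (p = 0.5). These are 9 tests of 1 family, and none can pass 0.05 at this group size.

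**Figure D4:**
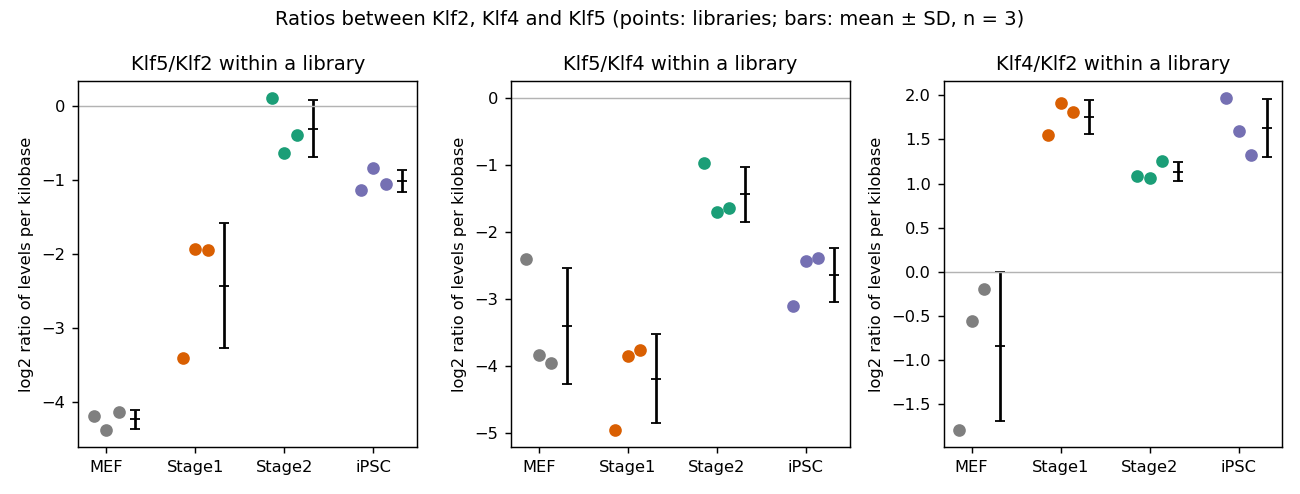
Log2 ratio of levels per kilobase (y axis) of Klf5 to Klf2, Klf5 to Klf4 and Klf4 to Klf2 in each library (points), with the mean ± SD of 3 libraries beside them, for MEF, Stage1, Stage2 and iPSC. Klf5 to Klf2 climbs to -0.31 at Stage2 and lies at -1.01 in iPSC.

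Genes whose levels tracked a member were taken over the 12 libraries, which share the group structure, as the 3 highest Pearson correlations of log2 CPM among 11107 genes. They are given as a description. For Klf5 they were Tgm3 (r = 0.984), a transglutaminase, Otx2 (r = 0.983), a factor of the formative and anterior epiblast, and D1Pas1 (r = 0.980). Otx2 averaged 0 CPM in MEF, 4.65 CPM at Stage1, 55.6 CPM at Stage2 and 7.93 CPM in iPSC. For Klf2 they included Fbxo11 (r = 0.961) and Utrn (r = 0.958). Utrn, which encodes utrophin, averaged 218 CPM in MEF, 293 CPM at Stage1, 433 CPM at Stage2 and 249 CPM in iPSC.

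For Klf4 the closest genes were Ccdc57 (r = 0.995), Tcof1 (r = 0.992) and the DNA ligase gene Lig1 (r = 0.992), which averaged 13.6 CPM in MEF, 145 CPM at Stage1, 176 CPM at Stage2 and 128 CPM in iPSC. For Klf6 they were the small GTPase gene Rhob (r = 0.993), Atp5g2 (r = 0.993) and Fam171a1 (r = 0.992). Rhob averaged 294 CPM in MEF, 3.06 CPM at Stage1, 8.56 CPM at Stage2 and 6.45 CPM in iPSC. Between members, r over the 12 libraries was 0.960 for Klf3 and Klf13, 0.944 for Klf4 and Klf9, -0.963 for Klf6 and Klf9 and -0.965 for Klf3 and Klf10.

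Of the 7 other Klf genes, 5 had enough reads to be tested. At Stage1 against MEF 4 of the 5 were called higher and 1 was not called, with 44.2% of all genes called higher. Klf8, a CtBP-binding repressor, averaged 32.1 ± 3.57 CPM at Stage1 and 4.24 ± 2.69 CPM in MEF (log2 change 3.0, SE 0.338), and Klf11, the nearest relative of Klf10, 28.4 ± 1.60 CPM at Stage1 and 13.4 ± 5.34 CPM in MEF (log2 change 1.06, SE 0.223). Klf12 was called higher at Stage2, with 15.6 ± 4.47 CPM, against 8.82 ± 0.414 CPM at Stage1 (log2 change 0.82, adjusted p = 0.0130 by edgeR). That call was lost without Stage2 replicate 1 or 3. The other 4 tested, Klf8 among them (46.8 ± 5.69 CPM at Stage2), were not called in this comparison. In iPSC Klf8 was lower at 24.4 ± 0.767 CPM, against 46.8 ± 5.69 CPM at Stage2, and Klf12 at 8.35 ± 1.58 CPM, against 15.6 ± 4.47 CPM. Leaving out a library gave 0 to 2 of these last calls. Klf1 and Klf14 were too sparse to be tested, with at most 1.11 and 0.595 CPM in a library.

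The Sp genes, which share the zinc fingers and the GC box, were counted in the same way, with 6 of 9 tested. At Stage1 against MEF 4 were higher, 1 lower and 1 not called, with 44.2% of all genes called higher and 36.1% lower. Sp1 averaged 322 ± 13.5 CPM at Stage1 and 109 ± 12.4 CPM in MEF, and Sp3 263 ± 19.4 CPM at Stage1 and 91.3 ± 7.51 CPM in MEF. Sp2 had its highest mean at Stage2, with 12.6 ± 2.5 CPM at Stage2 and 5.84 ± 0.717 CPM at Stage1 (adjusted p = 0.00172), and 5.78 ± 0.987 CPM in iPSC, against 12.6 ± 2.5 CPM at Stage2 (adjusted p = 0.00549). Its lower level at Stage1 than in MEF (log2 change -0.67, adjusted p = 0.0191) was lost without MEF replicate 3 or Stage1 replicate 3 and with library totals.

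**Figure D5:**
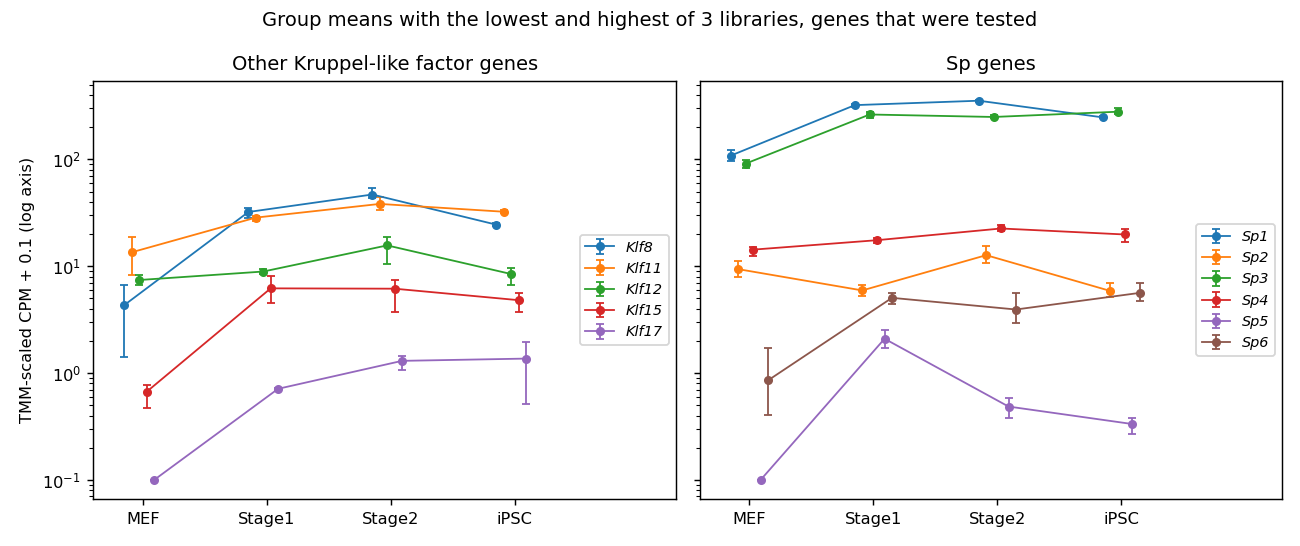
Group means of TMM-scaled CPM + 0.1 (log axis) for the tested other Klf genes (left) and Sp genes (right) in MEF, Stage1, Stage2 and iPSC, with bars from the lowest to the highest of 3 libraries. Klf8, Klf11, Sp1 and Sp3 lie above their MEF levels in the later groups. Klf8, Klf12 and Sp2 have their highest means at Stage2, and Klf8 was not called at Stage2 against Stage1.

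Genes of the pathways known to switch Klf genes on, 18 in all, were set against the 36.1% of all genes called lower and 44.2% called higher at Stage1 against MEF: 13 were called lower, 1 higher and 4 were not called, with a median log2 change of -1.63, against 0.27 over all genes. Tgfb1, the TGF-beta ligand, averaged 0.180 ± 0.0962 CPM at Stage1 and 32.5 ± 2.05 CPM in MEF, and its receptor gene Tgfbr2 1.99 ± 0.267 CPM at Stage1 and 159 ± 16.6 CPM in MEF. The cytokine gene Lif averaged 3.57 ± 0.854 CPM at Stage1 and 41.5 ± 1.98 CPM in MEF. The gene called higher was Lifr, the receptor for that cytokine, named here after its values were seen, with 83.1 ± 7.46 CPM at Stage1 and 22.7 ± 4.09 CPM in MEF. With library totals 3 genes were called higher. At Stage2 against Stage1, 7 were called higher and 11 not called, and the median was 0.25. The shares of all genes were 20.6% higher and 19.8% lower, with a median of 0.02. Lifr reached 197 ± 12.1 CPM at Stage2, against 83.1 ± 7.46 CPM at Stage1, the glucocorticoid receptor gene Nr3c1 23.5 ± 1.91 CPM at Stage2 and 7.88 ± 1.38 CPM at Stage1, and Smad3 26.0 ± 3.04 CPM at Stage2 and 10.4 ± 0.438 CPM at Stage1. The share of all genes called lower in iPSC against Stage2 was 8.87%. There 2 of the 18 were called lower and 16 not called (1 to 3 lower when a library was left out). These were Mef2d, with 11.8 ± 1.43 CPM in iPSC and 21.5 ± 2.32 CPM at Stage2, and Il6st, the coreceptor for Lif, with 101 ± 11.1 CPM in iPSC and 140 ± 4.37 CPM at Stage2.

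The 12 transcription factors that act with Klf2, Klf4 and Klf5 in naive cells were all called higher at Stage1 than in MEF. Of all genes 44.2% were called higher. Pou5f1 is among the 12, and cells of all groups except MEF were sorted for its reporter. Its call was thus not independent of the sort. The part of the sort in the calls of the other genes on the list, and of Klf2, Klf4 and Klf5, was not tested. Tfcp2l1, for example, had 555 ± 58.5 CPM at Stage1 and 0.207 ± 0.262 CPM in MEF. At Stage2 against Stage1, 5 were higher, 1 lower and 6 not called, and 3 to 6 were higher when a library was left out. The shares of all genes were 20.6% higher and 19.8% lower. Tbx3 reached 91.5 ± 17.8 CPM at Stage2, against 37.0 ± 13.3 CPM at Stage1, and Sox2 974 ± 52.7 CPM at Stage2 and 526 ± 85.2 CPM at Stage1. In iPSC against Stage2, 4 were lower and 8 not called, and 2 to 5 were lower when a library was left out. The share of all genes called lower was 8.87%. Tbx3 averaged 45.9 ± 2.44 CPM in iPSC and 91.5 ± 17.8 CPM at Stage2, and Prdm14 26.6 ± 0.697 CPM in iPSC and 49.7 ± 1.53 CPM at Stage2. The list's median log2 change was 0.35 and then -0.27, against 0.02 and 0.04 over all genes.

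Of 13 genes known as direct targets of Klf proteins, 3 were higher, 8 lower and 2 not called at Stage1 against MEF. Their median log2 change was -1.45, against 0.27 over all genes, of which 44.2% were called higher and 36.1% lower. Cdh1, the E-cadherin gene that Klf4 activates, averaged 388 ± 7.58 CPM at Stage1 and 0.467 ± 0.519 CPM in MEF. Thbd, a Klf2 target in endothelium, averaged 2.62 ± 0.455 CPM at Stage1 and 84.4 ± 48.5 CPM in MEF. At Stage2 against Stage1, 6 were higher, 2 lower and 5 not called, with a median of 0.76. The shares of all genes were 20.6% higher and 19.8% lower, with a median of 0.02. Lefty1, a target of Klf4 with Pou5f1 and Sox2, reached 7.70 ± 1.31 CPM at Stage2, against 0.251 ± 0.227 CPM at Stage1, and Smad7, which damps TGF-beta signals and is repressed by Klf10, 76.7 ± 8.98 CPM at Stage2 and 22.1 ± 3.75 CPM at Stage1. S1pr1, another Klf2 target, was at 0.734 ± 0.408 CPM at Stage2, against 7.61 ± 1.84 CPM at Stage1. In iPSC against Stage2, 2 were higher, 4 lower and 7 not called, with a median of -0.37. The shares of all genes were 9.21% higher and 8.87% lower, with a median of 0.04. Leaving out a library gave 1 to 2 of the targets higher and 1 to 6 lower. Among them Lefty1 averaged 17.0 ± 4.71 CPM in iPSC and 7.70 ± 1.31 CPM at Stage2, and Cdkn1a, a cell cycle inhibitor, 8.81 ± 1.94 CPM in iPSC and 17.5 ± 3.90 CPM at Stage2.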

How the data were processed

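RNA-seq of 12 mouse libraries gave, per the submitters' processing notes and the values, raw HTSeq counts per gene symbol that the authors deposited without normalization. The notes name TopHat2 2.0.9, Bowtie2 2.2.6, SAMtools 0.1.19, HTSeq 0.5.4p3, DESeq2 1.12.4 and mm10. RNA was extracted as total RNA, per the labels' protocols; strandedness and annotation version are not given in the sources used here. Lines of reads in no or several genes were left out of totals and tests.

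All 4 groups entered a single fit in edgeR 4.0.16 (R 4.3.3, limma 3.58.1, statmod 1.5.0) with filterByExpr by group, TMM scaling and robust quasi-likelihood tests. Adjustment was over the 14770 genes kept, and genes were called below 0.05. The fit's common coefficient of biological variation was 0.190. SE is the size of the log2 fold change divided by the root of F. Correlations used log2 CPM with a prior count of 2. The 95% intervals use that SE and so include the spread between libraries.

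The members, lists and rule for named genes were chosen with earlier results of these data known. All members are named; from each list at most 4 called genes per comparison with the largest fold change and at least 5 CPM in the higher group are named, and 3 genes tracking each of Klf2, Klf4, Klf5 and Klf6, of which 1 is not reported here. Replicate numbers were not used to pair libraries in the main fit. Whether they mark a shared batch or origin is not given in the sources used here. Alternatives were RLE scaling, library totals, no filter, a stricter filter (at least 1 CPM in 3 libraries), a replicate block, a prior count of 0.5, DESeq2 1.42.0, fits of 2 groups at a time, another gene length and leaving out each of the 12 libraries.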

Additional observations from a re-analysis of the deposited data

How the results depend on the processing

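Of 1200 values of the members under alternatives, 1149 kept their direction and side of the threshold, 25 lost the call, 21 gained it and 5 changed sign. Those 5 were uncalled values of Stage2 against Stage1 without a library, with ranges of -0.12 to 0.34 for Klf7 (-0.068, -0.12 and -0.12), -0.11 to 0.12 for Klf4 and -0.060 to 0.26 for Klf13. Fitting only 2 groups gave 2307 genes higher and 2647 lower (against 1360 and 1310) and 5 members lower in iPSC against Stage2, and 4 members lower in iPSC against Stage1. No filter gave 2 members higher and 1 lower in iPSC against Stage1. Library totals moved the median gene by 0.18, 0.20, -0.10, 0.10, 0.38 and 0.28 (log2) for Stage1 against MEF, Stage2 against Stage1, iPSC against Stage2, iPSC against Stage1, Stage2 against MEF and iPSC against MEF, and reversed no member. They left 0 members lower in iPSC against Stage1. They gave 4023 genes higher and 1679 lower at Stage2 against Stage1 (against 3048 and 2921), or 70.6% higher instead of 51.1%, and 888 higher and 1707 lower in iPSC against Stage2, or 34.2% higher instead of 50.9%.

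Leaving out each library gave, in iPSC against Stage2, 665 to 1984 genes higher, 568 to 1910 lower and 2 to 4 members lower, and in iPSC against Stage1 2 to 4 members higher and 0 to 4 lower. Where this left a group with 2 libraries the spread was shared over the fit. The counts of members called in the other comparisons stayed within 1.5 times under each alternative. Same-numbered libraries correlated above 0.1 in 3 of 18 pairs, with r from -0.07 to 0.20, and 8 of 12 libraries correlated best with their own number. With the replicate block, 1228 genes were higher and 1197 lower in iPSC against Stage2, and no member's call changed. Group size limits exact tests to p = 0.1, and Klf7 rests on few reads outside MEF.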

Other observations

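Corepressors and coactivators that Klf proteins bind, 12 genes in all, had 7 called higher, 3 lower and 2 not called at Stage1 against MEF, where 44.2% of all genes were called higher and 36.1% lower. Their median log2 change was 0.43, against 0.27 over all genes. Leaving out Stage1 replicate 2 or Stage1 replicate 3, or using library totals, left 1 called lower. Sap30 and Sin3a code for parts of the Sin3 complex, which Klf9, Klf10, Klf13 and Klf16 recruit. Sap30 averaged 143 ± 22.7 CPM at Stage1 and 6.87 ± 3.02 CPM in MEF (SD, n = 3 each), and Sin3a 306 ± 34.8 CPM at Stage1 and 59.6 ± 13.4 CPM in MEF. Ctbp2, whose product is a partner of Klf3, averaged 231 ± 21.4 CPM at Stage1 and 55.0 ± 5.0 CPM in MEF, where Klf3 itself was lower at Stage1. In iPSC against Stage2 the acetyltransferase genes Crebbp and Ep300 were lower, with Crebbp at 35.5 ± 6.99 CPM in iPSC and 74.0 ± 8.80 CPM at Stage2 (adjusted p = 0.000730 by edgeR), among 3 lower, 1 higher and 8 not called. Leaving out a library gave 1 to 4 lower, and of all genes 8.87% were called lower and 9.21% higher.

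Of 10 genes for ubiquitin ligases and kinases that act on Klf proteins, 4 were higher, 4 lower and 2 not called at Stage1 against MEF. With 44.2% of all genes called higher and 36.1% lower, these counts lie near the background. Fbxw7, whose product marks Klf2 and Klf5 for degradation, averaged 107 ± 3.96 CPM at Stage1 and 24.3 ± 1.75 CPM in MEF. At Stage2 against Stage1, 2 of the 10 genes were higher, 2 lower and 6 not called. Of all genes 20.6% were called higher and 19.8% lower. Leaving out a library gave 1 to 4 of the 10 higher, and library totals gave 5. Fbxw7 averaged 70.8 ± 13.2 CPM at Stage2, against 107 ± 3.96 CPM at Stage1 (log2 change -0.59, adjusted p = 0.00325 by edgeR). The mRNA of Klf2 and Klf5 was higher in this comparison, and the part of Fbxw7 in it was not tested. Fbxo32, coding for a muscle ligase that binds Klf4, averaged 1.66 ± 0.445 CPM at Stage1 and 181 ± 18.0 CPM in MEF. Gsk3b was lower at Stage2 than at Stage1, with 62.0 ± 1.34 CPM at Stage2 and 90.1 ± 5.57 CPM at Stage1. It was lower again in iPSC, with 37.7 ± 5.04 CPM in iPSC and 62.0 ± 1.34 CPM at Stage2. In iPSC against Stage2, 1 of the 10 genes was called lower and 9 were not called, with 8.87% of all genes called lower. Protein levels were not measured.

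Markers of other cell types were also summed. At Stage2 the endothelial list gave 78.6 to 105 CPM and the trophoblast list 60.3 to 84.6 CPM, against 46.5 to 58.4 CPM and 118 to 136 CPM at Stage1. Pecam1 made up most of the endothelial sum, its mean moving from 41.0 (Stage1) to 83.5 CPM (Stage2). Tfap2c made up most of the trophoblast sum and went down, from 119 to 54.5 CPM. Eomes went up, from 6.14 to 13.2 CPM, and so did Krt7, from 0.230 to 5.33 CPM. Of the 4 trophoblast genes tested, 2 were called higher, 1 lower and 1 not called in this comparison. Of the 5 endothelial genes tested, 1 was called higher and 4 were not called. Keratinocyte and erythroid lists stayed at or below 4.08 and 3.91 CPM in each library. Their part in the Klf values was not tested.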
